A study of Mus musculus with 16 samples.

Results

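Some regions bound by tagged SETD5 were already occupied before 3T3-L1 preadipocytes were induced to become fat cells, and those away from gene starts and ends are called here the 0 h sites. They were selected on the SETD5-V5 island lists alone: a 0 h site is an enriched region (island) of the 6 h list of replicate A that is shorter than 20000 bp, overlaps by at least 1 bp an island of the 6 h list of replicate B and of both 0 h lists, and has its midpoint outside the promoters and ends of protein-coding transcripts. Of 35573 islands of the 6 h list of replicate A, 2993 (8.41%) met the rule, which was 9.46% of the 31628 distal islands under the length limit and 14.7% of the 20344 of these shared with replicate B. Of the same 20344, 5219 were in a single 0 h list and 12132, called new sites, were in neither. Because the V5 lists chose the sites, V5 values are descriptions with no test, and the tests below use histone marks, which the rule did not use.

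3T3-L1 is a mouse preadipocyte line. It was grown past confluence and switched to differentiation medium with insulin, dexamethasone and isobutylmethylxanthine (MDI), and times count from that switch. ChIP-seq lists of 16 libraries were used. H3K27ac was profiled at 0 h (day 0) and 48 h (day 2) in cells labelled with the viral vector Empty and in cells labelled SETD-V5, with replicates A and B in each of the 4 groups. SETD5-V5 was profiled with a V5 antibody at 0 h and 6 h, with replicates A and B. The labels give the virus SETD-V5 for replicate B but "-" for replicate A, although a V5 antibody detects only the tagged protein. H3K4me1 at day 0 and day 2 and endogenous SETD5 at 0 h and 6 h (antibody IgG-F2104, viral "-") have 1 library each. The H3K4me1 libraries carry the label SETD-V5 and no empty-vector partner. According to the methods, the virus carried the mouse Setd5 coding sequence with a V5 tag, so the tagged protein was made from the virus beside the cells' own SETD5. The methods call the H3K27ac and SETD5-V5 replicates biological, and the labels do not say what separates A from B, so p-values measure the spread between these libraries. The lists hold no read counts and no input track, and a region absent from a list was below the calling threshold, not free of signal.

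SETD5 carries a SET domain and is found with the NCoR and HDAC3 corepressor, which removes acetyl groups from histones. Distal regulatory regions called enhancers carry H3K4me1 when primed or active, and H3K27ac when active. In fibroblast-like cells many enhancers are occupied by AP-1 (Fos and Jun dimers) and TEAD factors, and after MDI the C/EBP factors and the glucocorticoid receptor bind early in the adipogenic programme, before PPARγ takes over.

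Examples from 2 groups of the 0 h sites are printed so that they can be compared. The first group shows 200 bases, plus strand, mm9, of sites near genes of the listed pathways, each centred on an AP-1 word (TGACTCA on either strand) in capitals. Holding this word was a condition for being shown, so it is not a measure of how common it is. It lay at 2605 bp (Col3a1), -7295 bp (Zyx), 2594 bp (Lpl) and -1050 bp (Klf4) from the site midpoint. At Col3a1, a fibrillar collagen gene, the window chr1:45376009-45376208 also holds a TEAD word (CATTCCA, the reverse complement of TGGAATG), likewise in capitals. The windows of Zyx, an actin-binding focal adhesion gene (chr6:42299609-42299808), and of Lpl, the lipoprotein lipase gene (chr8:71408998-71409197), come from sites with H3K27ac in every library. The window near Klf4, an early adipogenic regulator (chr4:55536854-55537053), comes from a site in no histone list.
Col3a1: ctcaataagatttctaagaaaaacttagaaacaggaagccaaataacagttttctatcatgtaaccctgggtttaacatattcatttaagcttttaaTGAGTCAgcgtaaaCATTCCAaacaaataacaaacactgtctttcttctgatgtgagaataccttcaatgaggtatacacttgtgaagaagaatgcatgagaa
Zyx: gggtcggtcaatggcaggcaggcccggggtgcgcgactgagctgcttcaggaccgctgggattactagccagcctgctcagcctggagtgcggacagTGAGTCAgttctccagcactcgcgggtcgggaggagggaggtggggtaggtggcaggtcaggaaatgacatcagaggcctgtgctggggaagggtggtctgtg
Lpl: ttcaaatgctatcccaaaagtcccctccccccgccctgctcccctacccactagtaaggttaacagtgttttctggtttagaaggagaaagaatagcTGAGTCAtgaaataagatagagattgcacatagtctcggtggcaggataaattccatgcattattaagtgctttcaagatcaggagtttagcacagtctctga
Klf4: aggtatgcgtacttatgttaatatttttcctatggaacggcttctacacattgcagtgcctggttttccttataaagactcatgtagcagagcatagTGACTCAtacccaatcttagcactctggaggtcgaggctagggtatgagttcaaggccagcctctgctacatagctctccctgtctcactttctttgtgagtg

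The second group shows 300 bases of sites that are only 400 bp long. Capitals here mark bases inside 31-base words that occur more than once in the mm9 assembly. The window chr12:3109851-3110150 holds 250 of 300 such bases, with a median of 24 copies per word and up to 88, and its repeated units are those of mouse major satellite, the repeat of pericentromeric heterochromatin. The window chr6:103599051-103599350, nearest Chl1, a neural adhesion gene, holds 218 of 300, with a median of 1 copy per word and at most 8. These copies are those in the assembly, and copies missing from it are not counted.
chr12 satellite site: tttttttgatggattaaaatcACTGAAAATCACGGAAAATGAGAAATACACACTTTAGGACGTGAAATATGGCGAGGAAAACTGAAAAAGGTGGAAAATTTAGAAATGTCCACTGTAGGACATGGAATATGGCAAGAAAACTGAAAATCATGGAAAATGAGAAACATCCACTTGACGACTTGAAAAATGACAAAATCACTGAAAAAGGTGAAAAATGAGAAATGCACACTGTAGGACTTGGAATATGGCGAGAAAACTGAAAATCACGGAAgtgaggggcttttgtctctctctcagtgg
chr6 tandem site: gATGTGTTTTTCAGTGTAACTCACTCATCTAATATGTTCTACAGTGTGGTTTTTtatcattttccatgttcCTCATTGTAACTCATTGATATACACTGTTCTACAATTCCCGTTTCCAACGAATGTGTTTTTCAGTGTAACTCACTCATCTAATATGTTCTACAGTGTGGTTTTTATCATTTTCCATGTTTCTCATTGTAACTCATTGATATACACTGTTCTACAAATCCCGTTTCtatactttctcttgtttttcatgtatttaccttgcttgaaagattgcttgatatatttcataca
In the order of V5 scores described next, these short sites take places 14 and 23 of 2993. A 20-base word of the chr12 window was found in 17 0 h sites, in 0 of 12132 new sites and in 0 of 5219 sites of a single 0 h list.

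The 4 V5 lists differed in length, with 16054 (0 h A), 6666 (0 h B), 35573 (6 h A) and 27220 (6 h B) islands. The 0 h list of replicate B was the smallest, so it limited how many sites could qualify, and 4848 of the 5219 sites of a single 0 h list were in A and 371 in B. Within each list, islands were ordered by the caller's score. The 0 h sites had a median score percentile of 82.6 (0 h A), 58.5 (0 h B), 84.6 (6 h A) and 83.04 (6 h B), so in the 6 h lists they sat among the higher-scoring islands. The median V5 island at the sites was 5600 bp (0 h A), 4000 bp (0 h B), 7000 bp (6 h A) and 6600 bp (6 h B). Islands were longer at 6 h than at 0 h at 1664 sites (55.6%) in replicate A and at 2053 (68.6%) in replicate B, and at 1358 (45.4%) in both. The length limit of the rule applied to the 6 h A island alone. The longest was thus 19800 bp in 6 h A and 126200 bp in 0 h A, so the rule itself shapes the replicate A comparison. Of the islands shared by both 0 h lists, wherever they lay, 86.3% of the A list and 86.8% of the B list were also in both 6 h lists. Sites had a median length of 7000 bp, against 5800 bp for sites of a single 0 h list and 3800 bp for new sites, and the range of the 0 h sites was 200 to 19800 bp.

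**Figure D1:**
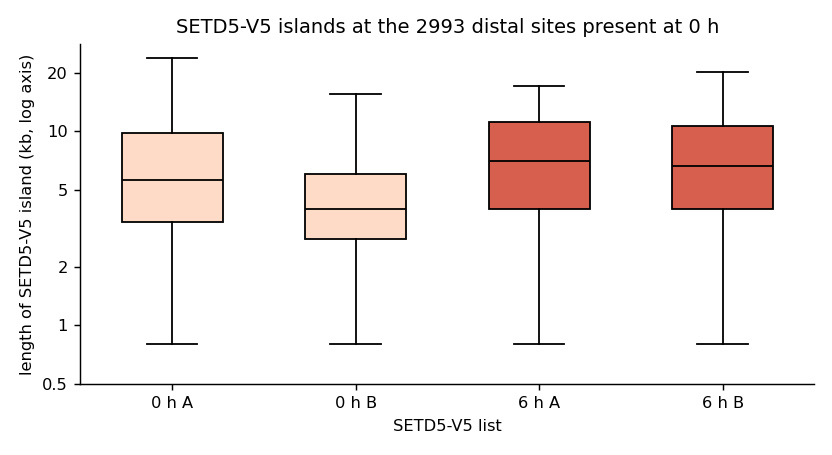
Length of the SETD5-V5 island at each of the 2993 sites in the 4 V5 lists (kb, log axis). Boxes show the quartiles with the median line and whiskers run from the 5th to the 95th percentile, and the medians are 5600, 4000, 7000 and 6600 bp from left to right. The lists chose the sites, with a length limit on the 6 h A islands alone, so the plot is a description.

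The length limit cut through a continuous range. The 3 longest sites kept were each 19800 bp and lay in introns of Yy1, a zinc finger regulator, Akt1, a kinase of the insulin pathway, and Trps1, a GATA-type repressor. The 3 shortest left out were each 20000 bp and lay nearest Foxc1, Ndrg1 and Fstl1. All 6 overlapped H3K27ac in 8 of 8 lists. Length alone left out 613 islands, a promoter midpoint 122 and a gene-end midpoint 142.

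H3K27ac, the mark of active enhancers, was present at most of the 0 h sites in every library. In empty-vector cells at 0 h, 79.2% (A) and 79.6% (B) of the sites overlapped an H3K27ac island. In empty-vector cells at 48 h the shares were 75.7% and 76.5%. SETD5-transduced cells had 82.4% and 81.6% before induction, then 81.0% and 80.5% by 48 h. The replicates of a group lay within 1 point of each other, and both empty-vector libraries at 48 h were below the other 6. At new sites the same libraries gave 47.2% and 46.9% (empty vector, 0 h), 50.8% and 53.2% (empty vector, 48 h), 51.6% and 49.8% (SETD5, 0 h) and 60.5% and 62.4% (SETD5, 48 h). In every library the share at new sites was below that at the 0 h sites. The difference between 0 h and new sites averaged 26.8 points over the 8 libraries and was positive in each (exact two-sided sign-flip permutation test, p = 0.0078, the smallest that 8 libraries allow). Part of a share depends on site length, so the difference was also taken by length. It was 34.4 points under 1500 bp, 11.6 from 1500 bp, 15.3 from 3000 bp and 21.9 from 6000 bp, positive in all 8 libraries in each class (exact permutation test, p = 0.0078). Long acetylated domains were also more frequent: an H3K27ac island of 10 kb or more lay on a mean of 9.76% of the 0 h sites and 1.93% of new sites (exact permutation test, p = 0.0078). Site length was not matched here, and the median was 7000 bp for the 0 h sites and 3800 bp for new sites.

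**Figure D2:**
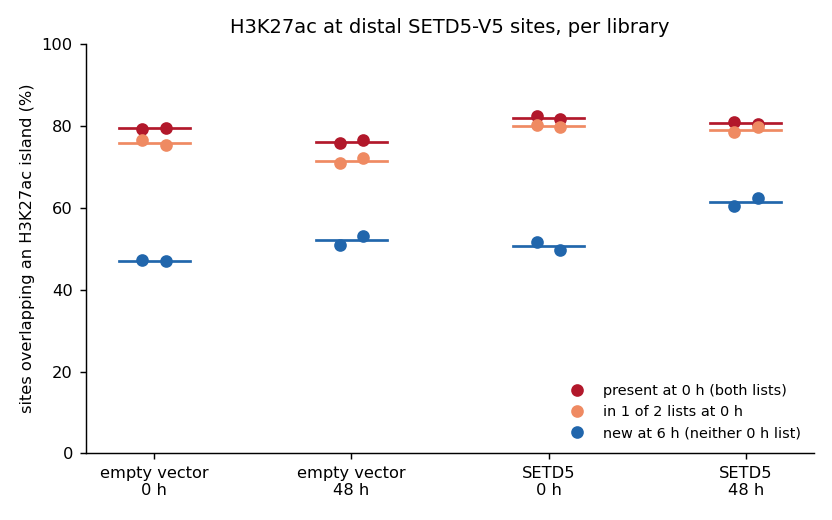
Share of sites that overlap an H3K27ac island (%), for each library (points) with the group mean (lines), in empty-vector and SETD5 cells at 0 h and 48 h. The 0 h sites lie between 75.7% and 82.4% in every library and new sites between 46.9% and 62.4%.

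From 0 h to 48 h the H3K27ac share at the 0 h sites was lower in each of 4 pairs of libraries, and the difference did not pass the test. The mean was 80.7% over the 4 libraries at 0 h and 78.4% over the 4 at 48 h, a difference of -2.28 points (exact two-sided permutation test, p = 0.229). Taken within vector and letter, it was -3.51 and -3.04 points in empty-vector cells and -1.40 and -1.17 points in SETD5 cells (exact permutation test within these pairs, p = 0.125, the smallest they allow). New sites moved the other way in all 4 of these pairs, by 3.59, 6.25, 8.94 and 12.7 points. The gap between the 0 h and new sites was therefore 31.8 points at 0 h and 21.7 points at 48 h, and this difference of -10.1 points passed the test (exact two-sided permutation test over 4 against 4 libraries, p = 0.0286, the smallest possible). With the lower-scoring part of every H3K27ac list removed (islands at or below the median score), the 48 h minus 0 h difference at the 0 h sites was -7.07 points and passed as well (exact permutation test, p = 0.0286). With all lists cut to the same length, the top 31000 islands by score, it was -2.00 points and also passed (exact permutation test, p = 0.0286). In 12 other alternatives it was -4.96 to -1.33 points and did not pass (exact permutation test, p = 0.0571 to 0.4).

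Between vectors, SETD5-transduced cells had a mean share of 81.4% and empty-vector cells 77.8% at the 0 h sites, a difference of 3.60 points (exact two-sided permutation test over 4 against 4 libraries, p = 0.0286). By time it was 2.61 points at 0 h and 4.59 points at 48 h, where 2 against 2 libraries cannot give a p below 0.333. The SETD5 lists were also longer, with 36604 to 39949 islands against 31292 to 35460 in empty-vector cells. With each list held to 31000 islands the difference was 0.025 points (exact permutation test, p = 0.971), so a higher share at the 0 h sites in SETD5 cells was not detectable once list length was equal. It also missed the threshold when any of the 4 SETD5 libraries was left out, at 3.26 (0 h A, p = 0.0857), 3.51 (0 h B, p = 0.0571), 3.73 (48 h A, p = 0.0571) and 3.90 points (48 h B, p = 0.0571), by the exact permutation test.

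Site by site, a call was made where both replicates of a group agreed, and it is read beside the same call over all 31628 distal sites. H3K27ac was in both empty-vector lists at 0 h at 2298 of the 0 h sites (76.8%), against 43.6% of new sites and 50.8% of all distal sites. It was kept at 48 h at 2039 (68.1%), against 39.1% of all distal sites. It was lost by 48 h at 153 (5.11%), against 8.23%. It was gained by 48 h at 67 (2.24%), against 8.63% of all distal sites and 13.0% of new sites. It was in no empty-vector list at 417 (13.9%), against 30.8%. As shares of all sites, the 0 h sites thus held more kept acetylation and less gain than distal sites in general. More of them were acetylated at 0 h, so the number of sites that could keep or gain the mark differed between the sets. How far this accounts for the shares was not tested. H3K27ac in both empty-vector lists and neither SETD5 list at 48 h occurred at 14 sites (0.468%), against 1.45% of all distal sites. The opposite call, both SETD5 lists and neither empty-vector list at 48 h, occurred at 103 (3.44%), against 6.79%. Of the 153 lost sites, 72 (47.1%) had H3K27ac in both SETD5 lists at 0 h and 48 h, against 35.4% of all lost distal sites, and 49 (32.03%) were lost in both vectors, against 38.7%. Of the 67 gained sites, 54 (80.6%) were in both SETD5 lists at 48 h, against 78.8% of all gained distal sites, and 4 (5.97%) in neither, against 11.1%.

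**Figure D3:**
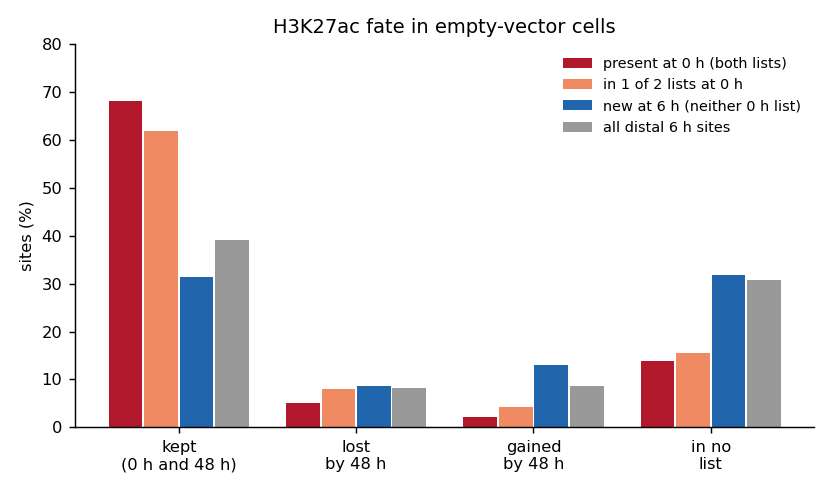
Share of sites (%) in each H3K27ac class in empty-vector cells: kept, lost or gained between 0 h and 48 h with both replicates of each time in accord, or in no list. Of the 0 h sites 68.1% were kept and 2.24% gained, against 39.1% and 8.63% of all distal sites. Bars have no error because a class uses both replicates.

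The highest-placed sites of each class show what these calls look like in single libraries. The lost site chr16:45921801-45931600, in an intron of Phldb2, a cortical microtubule anchor, had H3K27ac islands of 10200 and 6600 bp in empty-vector cells at 0 h and none at 48 h. In SETD5 cells it had 6200 and 9600 bp at 0 h and 1800 and 1000 bp at 48 h, so the island shortened in both vectors and passed out of the list in empty-vector cells. The lost site chr15:96229401-96246600, nearest Scaf11, had 3600 and 3800 bp in empty-vector cells at 0 h and none at 48 h, and in SETD5 cells 3600 and 4400 bp at 0 h and 0 and 2600 bp at 48 h. The lost site chr2:125915401-125925000 in an intron of 4930525F21Rik had 3200 and 3400 bp at 0 h in empty-vector cells and 1 island in SETD5 cells, of 3200 bp at 0 h.

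Among gained sites, chr15:3501001-3512000 in an intron of Ghr, the growth hormone receptor, had no H3K27ac island in empty-vector cells at 0 h and 4400 and 3200 bp at 48 h. In SETD5 cells Ghr had 2400 and 1600 bp already at 0 h and 4400 and 3600 bp at 48 h, and H3K4me1 was present at both times (1200 and 1800 bp). The gained sites chr12:116851201-116856800 near Ighv1-73 and chr2:122506801-122508200 near Slc30a4 were small calls, of 3000 and 1200 bp and of 1200 and 1200 bp at 48 h. Both also had an H3K27ac island in at least 1 SETD5 library at 0 h. The highest 3 of the 14 sites called in both empty-vector lists and neither SETD5 list at 48 h lay nearest Gm14322, Speer4c and Gm17019, in which 92.6%, 81.1% and 76.9% of sampled words were multi-copy (defined below).

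H3K4me1, carried by primed and active enhancers, was present at most of the 0 h sites. It was at 2619 (87.5%) at 0 h and 2498 (83.5%) at 48 h, against 58.6% and 58.7% of all distal sites and 52.9% and 55.2% of new sites. With 1 library per time the differences from new sites, 34.7 and 28.3 points, have no replicate check. The H3K4me1 lists held 50276 and 49926 islands, more than any H3K27ac list, and covered 50.2% of the bases of the 0 h sites at 0 h, where the 4 H3K27ac lists covered 49.6% to 55.5%. H3K4me1 without H3K27ac in either empty-vector list at 0 h, the pattern of a primed enhancer, was found at 323 of the 0 h sites (10.8%), against 15.1% of all distal sites, and 132 of the 323 (40.9%) were multi-copy. This call joins H3K4me1 libraries labelled SETD-V5 with H3K27ac of empty-vector cells, so by the labels the marks are from different cells. Of the 323, 54 (16.7%) had H3K27ac in both empty-vector lists at 48 h, against 26.2% of such distal sites and 32.9% of such new sites. No histone island of any of the 10 lists lay on 134 of the 0 h sites (4.48%), against 14.0% of all distal sites, and 34 of the 134 were on chromosome 15, which held 354 (11.8%) of the 0 h sites.

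Endogenous SETD5, detected with an antibody to the protein itself in cells labelled without a virus, overlapped far more 0 h sites than other distal sites. It was present at 646 (21.6%) at 0 h and 834 (27.9%) at 6 h, against 3.07% and 5.21% of all distal sites and 0.61% and 1.81% of new sites. These libraries have no replicate, and each list is short, with 2132 islands at 0 h and 3293 at 6 h. Read from the other side, 610 endogenous islands at 0 h (28.6%) and 791 at 6 h (24.02%) lay on a 0 h site. An endogenous island lay at both times on 559 of the 0 h sites (18.7%), against 15 new sites (0.124%) and 2.15% of all distal sites. An island in all 16 lists was found at 244 of the 2993 0 h sites. The 16 include the 4 V5 lists of the rule, so no other distal site under the length limit could have one.

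The sites with endogenous SETD5 stood apart in sequence. Words of 31 bases were sampled from each site, 1 every 200 bp, and a site was called multi-copy when at least 25% of its words occurred more than once in the assembly. By this measure 365 of the 0 h sites (12.2%) were multi-copy, against 253 new sites (2.09%) and 99 sites of a single 0 h list (1.90%). Of the 646 sites with endogenous SETD5 at 0 h, 324 (50.2%) were multi-copy, and of the 2347 without it 41 (1.75%) were. Of the 275 sites with endogenous SETD5 at 6 h and not at 0 h, 7 (2.55%) were multi-copy, close to the share among sites without it. Of the 244 sites in all 16 lists, 100 (41.0%) were multi-copy. No input list was used, and the part of copy number in these calls was not tested. Copies missing from the assembly are not counted, so a low-copy site can still have many copies in the genome.

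Multi-copy sites had their own pattern of marks. Endogenous SETD5 lay on 88.8% of them at 0 h and 87.1% at 6 h, and H3K4me1 on 89.0% at 0 h. H3K27ac lay on 39.7% in both empty-vector lists at 0 h, below the share of all distal sites, and 73.4% of these sites were intergenic. Low-copy sites of 1500 bp or more numbered 2516. Of these, 83.5% had H3K27ac in both empty-vector lists at 0 h, 9.06% endogenous SETD5 at 0 h and 17.4% at 6 h. Restricted to low-copy sites, the H3K27ac share exceeded that of low-copy new sites by 30.96 points (exact permutation test, p = 0.0078).

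**Figure D4:**
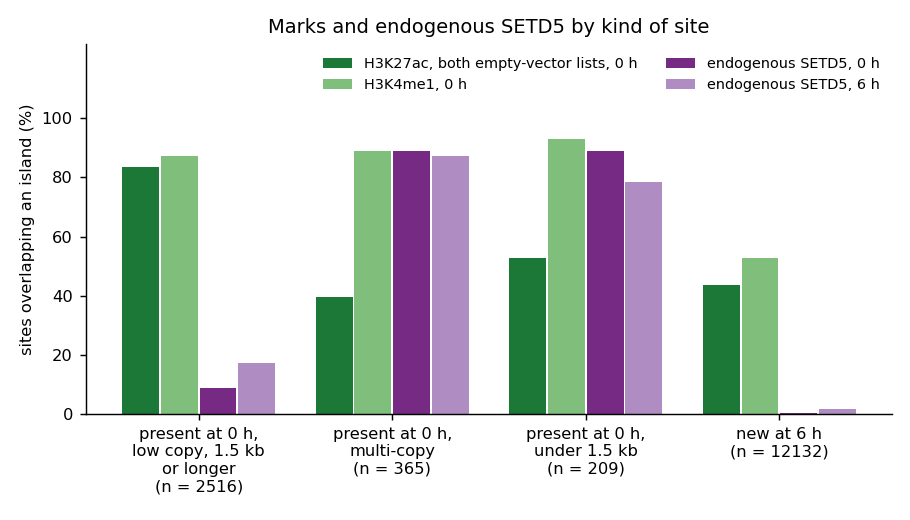
Share of sites (%) with H3K27ac in both empty-vector lists at 0 h, H3K4me1 at 0 h and endogenous SETD5 at 0 h and 6 h, for low-copy sites of 1500 bp or more, multi-copy sites and sites under 1500 bp present at 0 h, and new sites. Endogenous SETD5 at 0 h covers 88.8% of multi-copy and 9.06% of low-copy sites. The multi-copy and short classes overlap.

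The shortest sites were a further extreme. Under 1500 bp there were 209 of the 0 h sites (6.98%), against 59 sites of a single 0 h list (1.13%) and 544 new sites (4.48%). Of the 209, 97 (46.4%) were multi-copy and 16 (7.66%) lay within 10 kb of an assembly gap or chromosome end. Endogenous SETD5 lay on 186 (89.0%) at 0 h and 164 (78.5%) at 6 h. H3K4me1 lay on 194 (92.8%) at each time, and H3K27ac on 54.5% to 78.9% depending on the library. Islands at these sites had medians of 400 to 800 bp in every list, whatever the antibody. Their median score percentile was 88.0 and 89.4 in the H3K4me1 lists and 28.9 to 37.2 in the H3K27ac lists. All 16 lists held an island at 90 of them.

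The 10 sites with the highest mean V5 score percentile were all intergenic and were in 16 of 16 lists. The first, chr17:39979801-39986000, lay 362.7 kb from the nearest protein-coding start, that of Pgk2, a testis form of phosphoglycerate kinase. Its H3K27ac island was 6200 bp in 7 libraries and 6000 bp in the SETD5 library of replicate B at 48 h, its V5 islands were 6800 and 6200 bp at 0 h and 6200 and 6200 bp at 6 h, and its endogenous SETD5 islands were 6200 and 7000 bp. The second, chr10:118047801-118060400, lay 176.0 kb from Ifng, the interferon gamma gene, and had an H3K27ac island of 12600 bp in all 8 libraries. H3K27ac islands at both sites thus differed in length by at most 200 bp between vectors and times. The others were chr10:116905401-116920800 near Cpsf6, chr10:116714001-116730000 2.6 kb from Lyz2, chr15:74915801-74917600 near Ly6c2, 3 neighbouring sites near Cwc22 on chromosome 2, and sites nearest Vmn1r238 on chromosome 18 and Sfi1 on chromosome 11. Their multi-copy words ranged from 4.4% to 39.5%.

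The Setd5 gene itself held 3 of the 0 h sites: chr6:113063001-113072000, chr6:113093401-113094600 and chr6:113099001-113101600. In all 4 SETD5-transduced libraries each of the 3 had an H3K27ac island, and in all 4 empty-vector libraries none had. At the first site the islands were 1400 and 3800 bp at 0 h and 2800 and 3600 bp at 48 h. None of the 3 had an H3K4me1 or an endogenous SETD5 island. The H3K27ac islands followed the exons. The gene has 21 exons after the first, of which 13 lie in the 3 sites, and the SETD5 libraries had an H3K27ac island on 10 and 11 of the 13 at 0 h and on 11 and 13 at 48 h, while the 4 empty-vector libraries had one on 0 of 13. From the third exon on, every H3K27ac island of the SETD5 libraries, 7 or 8 per library, touched an exon, and their median length was 800 to 1200 bp. V5 islands lay on 13 of 13 exons in all 4 V5 lists, and H3K4me1 on 0 of 13 at both times although those libraries carry the label SETD-V5. The virus carries these exons as coding sequence, and reads of virus and gene cannot be told apart from the lists.

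The genes around the 0 h sites were described with lists of genes of known role. A gene was counted when a site lay within 50 kb of a start, and 3134 of 22238 protein-coding genes (14.1%) had one. Over all listed genes in the annotation the count was 52 of 182 (28.6%). The lists were chosen with earlier results of these data known, so their counts are descriptions. The larger shares were those of actin, preadipocyte and matrix genes. SRF-dependent actin cytoskeleton genes had 9 of 16 (56.3%): Acta2, Cnn2, Tpm1, Tpm2, Vcl, Flna, Myh9, Zyx and Filip1l. Preadipocyte and anti-adipogenic factors had 10 of 22 (45.5%), including the growth factor receptors Pdgfra and Pdgfrb, the secreted inhibitors Dlk1, Wnt5a and Wnt10b, and the factors Klf3, Zfp521, Zfp423 and Ebf1. Extracellular matrix genes had 8 of 20 (40.0%), among them the collagens Col1a2, Col3a1, Col5a1, Col5a2 and Col6a3. TGF-β and BMP pathway genes had 6 of 18 (33.3%), with the receptor Tgfbr2, the Smad genes Smad3 and Smad6, the corepressor Ski and the targets Id1 and Id3. Glucocorticoid and cyclic AMP responsive genes also had 6 of 18 (33.3%).

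Late adipogenic genes had 2 of 18 (11.1%, Lpl and Cidec), against 14.1% of all genes. Early adipogenic regulators had 3 of 11 (27.3%, Klf4, Nr3c1 and Kdm4b), AP-1 factors 1 of 12 (Fosl1), and TEAD and YAP targets 2 of 15 (Tead3 and Axl). BTG and TOB genes, antiproliferative regulators, had 2 of 5 (40.0%, Tob1 and Tob2). Of 17 haematopoietic and neural control genes 0 had a 0 h site. New sites lay near more genes, at 32.9% of all protein-coding genes and 96 of the 182 listed ones. They were near 10 of the late adipogenic genes, 12 each of the TEAD target, preadipocyte and matrix genes, 13 of the glucocorticoid and cyclic AMP genes, 10 of the TGF-β and BMP genes, 7 of the actin genes and 2 of the control genes. Gene length was not matched between lists.

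The listed genes had 84 of the 0 h sites between them. H3K27ac was in all 8 lists at 67 of these (79.8%), against 67.2% of all 0 h sites and 37.1% of all distal sites. Lost in empty-vector cells were 4 (4.76%) and gained 2 (2.38%), near the 5.11% and 2.24% of all 0 h sites. H3K4me1 was at both times at 61 (72.6%), against 79.9% of all 0 h sites and 47.3% of all distal sites. Endogenous SETD5 lay on 9 of the 84 at 0 h and 20 of the 84 at 6 h. Over all 0 h sites it lay on 21.6% and 27.9%, and over all distal sites on 3.07% and 5.21%. By role, all 9 TGF-β and BMP sites, both TEAD target sites and the Fosl1 site had H3K27ac in all 8 lists, as did 13 of 16 preadipocyte, 18 of 22 matrix and 11 of 13 actin sites. Of the 4 lost sites, 3 were at matrix genes (Col3a1, Thbs2 and Col5a2), each beside another 0 h site of the same gene that stayed in all 8 lists. The remaining lost site and 1 of the 2 gained sites were at Nr3c1, the glucocorticoid receptor gene, and the other gained site lay 47.7 kb from Klf9, a glucocorticoid target.

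At Col3a1 the site chr1:45364201-45382800 had H3K27ac islands of 11600 and 9200 bp in empty-vector cells at 0 h and 15800 and 14600 bp at 48 h. In SETD5 cells they were 15600 and 15400 bp at 0 h and 15200 and 14600 bp at 48 h. The V5 islands there were 50400 and 49800 bp at 0 h and 18600 and 15600 bp at 6 h, and endogenous SETD5 had an island of 6400 bp at each time. Acetylation was therefore broad in all 8 libraries, and the empty-vector libraries at 0 h held the shortest islands. At Pdgfra, the receptor that marks adipocyte progenitors, chr5:75543001-75559000 had H3K27ac islands of 9400 and 8200 bp at 0 h and 10800 and 10800 bp at 48 h in empty-vector cells, and of 8600, 8200, 12800 and 11000 bp in SETD5 cells. At Klf3, a repressor of adipogenesis, chr5:65191801-65205200 had endogenous SETD5 islands of 3200 bp at 0 h and 13000 bp at 6 h.

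At the 3 named actin gene sites the islands of empty-vector cells were shorter at 48 h. At Tpm1 (tropomyosin), chr9:66883801-66898000, the H3K27ac islands of empty-vector cells were 12000 and 14000 bp at 0 h and 4200 and 5000 bp at 48 h, and those of SETD5 cells 11400 and 11000 bp at 0 h and 8400 and 14000 bp at 48 h. At Zyx, chr6:42298001-42316000, empty-vector cells had 8200 and 7800 bp at 0 h and 4400 and 4200 bp at 48 h, and SETD5 cells 7200 and 8400 bp at 0 h and 6600 and 7400 bp at 48 h. At Filip1l, chr16:57390001-57393600, empty-vector cells had 5400 and 4400 bp at 0 h and 2200 and 800 bp at 48 h, and SETD5 cells 4800 and 5400 bp at 0 h and 2800 and 2800 bp at 48 h. At all 3 genes the replicates of empty-vector cells did not overlap between times, with 2 libraries a group and no test. Of the 2039 of the 0 h sites with an island in all 4 empty-vector lists, both islands were shorter at 48 h than both at 0 h at 655 (32.1%), against 23.8% of all such distal sites and 20.2% of new sites. Both were longer at 413 (20.3%), against 28.7% and 34.7%. Among the 67 such sites of listed genes 24 were shorter and 15 longer.

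Among other named sites, with replicates not overlapping between times, the islands of empty-vector cells were also shorter at 48 h near Tead3, Axl, Tob2 and Kdm4b. They were longer near Lpl, Sik1, Fosl1, Mmp2, Klf9, Tob1 and Trps1, and at the Col3a1 and Pdgfra sites above. Lengths follow for some of these. At Tead3, a TEAD factor, chr17:28476401-28488800, they were 9000 and 9000 bp at 0 h and 3600 and 4000 bp at 48 h, and those of SETD5 cells 9400 and 9800 bp at 0 h and 4400 and 8400 bp at 48 h. At Tob2, chr15:81626601-81645600, they were 11800 and 11600 bp and then 6000 and 6200 bp, and at Kdm4b, a histone demethylase, chr17:56462801-56472800, 9800 and 5600 bp and then 4200 and 4600 bp. At Lpl, chr8:71400001-71413000, the H3K27ac islands of empty-vector cells were 8200 and 6800 bp at 0 h and 17200 and 13400 bp at 48 h, and those of SETD5 cells 6200 and 8200 bp at 0 h and 6200 and 8400 bp at 48 h. At Sik1, a cyclic AMP-induced kinase, chr17:32025201-32039400, they were 10200 and 6400 bp at 0 h and 16600 and 16200 bp at 48 h in empty-vector cells, and 10200 and 11400 bp and then 16200 and 16800 bp in SETD5 cells. In empty-vector cells the islands at Lpl were longer at 48 h in both replicates, which was not so in SETD5 cells, and at Sik1 they were longer in both vectors. The difference between vectors was not tested, with 2 libraries a group. At Smad6, chr9:63859401-63871200, all 8 islands were 6800 to 7800 bp. The Klf4 site and the Cidec site, which lies in Ttll3, were in the 4 V5 lists and no other. At Tob1, chr11:94070401-94080800, H3K27ac was in 8 of 8 lists (3800 to 9400 bp), H3K4me1 in neither, and endogenous SETD5 at 6 h only (6200 bp).

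**Figure D5:**
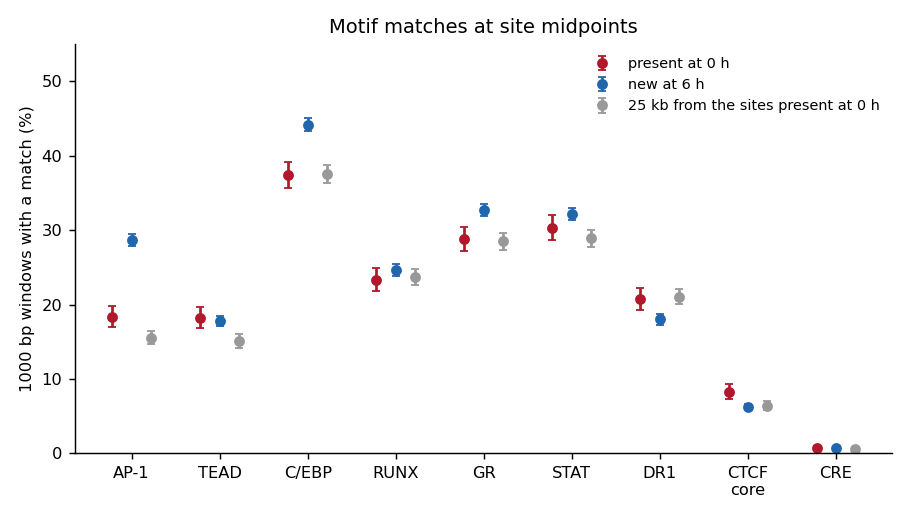
Share of 1000 bp windows (%) holding a match to each of 9 motifs, at the midpoints of the 0 h sites and of new sites and 25 kb to either side of the 0 h sites, with 95% binomial intervals of counting. AP-1 is at 18.4%, 28.7% and 15.5%, and C/EBP at 37.4%, 44.1% and 37.6%.

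Exact motif words were counted on both strands in 1000 bp around the midpoint of each site and in windows 25 kb to either side. AP-1 (TGACTCA) was found in 548 of 2984 windows of the 0 h sites (18.4%, 95% Wilson interval 17.02% to 19.8%), in 28.7% of new sites and in 15.5% of the flanking windows. The AP-1 share of the 0 h sites was thus nearer to that of the surrounding sequence than to that of new sites. Taken over whole islands it was 0.204 matches per kb, against 0.283 at new sites and 0.180 in the flanks. In sites under 5000 bp it was 18.1% against 30.5% of new sites. TEAD (TGGAATG) was found in 18.2% (16.9% to 19.6%), in 17.7% of new sites and in 15.1% of the flanks. C/EBP (TTGCNNAA) was in 37.4%, 44.1% and 37.6%, and the glucocorticoid receptor half-site pair (ACANNNTGT) in 28.8%, 32.7% and 28.5%, so for both motifs the 0 h sites matched the flanks more closely than they matched new sites. RUNX (TGTGGTT) was in 23.4%, 24.6% and 23.7%, and STAT (TTCNNNGAA) in 30.3%, 32.1% and 28.9%. DR1 (GGNCANAGG), read by RXR with PPARγ, was in 20.7%, 17.99% and 21.1%. The CTCF core (CNAGNGGGC) was in 8.28%, 6.18% and 6.37%, and CRE (TGACGTCA) in 0.670%, 0.676% and 0.573%. Mean GC content was 44.0%, 42.5% and 43.5%, and CpG dinucleotides per kb were 11.5, 9.63 and 10.0. Windows of neighbouring sites are not independent, the intervals cover counting only, and a word match is not a bound site.

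By position, 138 of the 0 h sites (4.61%) had their midpoint in an exon, 1670 (55.8%) in an intron and 1185 (39.6%) between genes, against 2.20%, 47.1% and 50.7% of new sites. The median distance to the nearest protein-coding start was 23.8 kb, against 40.8 kb for new sites, and 33.6% lay within 10 kb, against 19.7%. Some part of the island touched a promoter at 24.9% of the 0 h sites and 8.95% of new sites, although every midpoint lay outside. Some of the 0 h sites lay close to one another. Joined across gaps of up to 10 kb they formed 2405 runs, of which 2026 were single sites and 117 held 3 or more. In a run of at least 2 were 967 sites (32.3%). Runs were not counted for new sites or for all distal sites, so no comparison can be made.

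The longest run, chr2:44869801-44946200, held 9 sites across Zeb2, a zinc finger repressor of epithelial genes, and Gtdc1. H3K27ac was in both empty-vector lists at 2 of the 9 at 0 h and at 4 at 48 h, and endogenous SETD5 at 6 h on 3. A run of 6 at Rbms1 on chromosome 2 had 5 and 4 acetylated sites and no endogenous SETD5. By contrast, 8 sites at Alkbh5 and Llgl1 on chromosome 11, 7 at Spin4 on chromosome X and 6 at Snrpn on chromosome 7 had endogenous SETD5 at 6 h on all of their sites, and H3K27ac in both empty-vector lists at 0 h on 0. Cdh11, a mesenchymal cadherin, had 7, with endogenous SETD5 on 4 and H3K27ac on 0. A run of 8 at Gm10354, Gm9758 and Speer4e on chromosome 5 had endogenous SETD5 at 6 h on all 8. It had H3K27ac in both empty-vector lists at 0 h on 1. Dlc1 and Gm7697 had 9 sites each within 50 kb of a start. Nrg1, Mkln1, Pdcd4, Speer4e, Gm9758 and Gm10354 had 8 each.

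Chromosomes differed in density from 3.42 sites per Mb on chromosome 15 to 0.222 on X, with 1.13 over all, leaving out Y, which held 3. The 6 chromosomes with most sites were 2 (399), 8 (255), 6 (254), 15 (354), 17 (240) and 5 (184). Together they held 1686, or 56.3% of the 0 h sites, but 30.7% of the genome, 36.3% of new sites and 36.2% of the distal H3K27ac sites of empty-vector cells at 0 h. They were chosen for their counts of 0 h sites, so some excess over the other sets was built in and was not tested. Among low-copy sites of 1500 bp or more the same chromosomes held 1494 (59.4%).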

How the data were processed

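The 16 libraries are ChIP-seq of 3T3-L1 cells. Per the labels, reads were mapped to mm9 and islands called per library, and the submitters' processing notes name Bowtie2, SICER and deepTools. The methods add a window of 200 bp. Replicates were not pooled. Each deposited list gives chromosome, start, end and a score that the authors' caller assigned to the island. The score has no fixed unit and was used only to order or filter islands within a list. The lists hold no read counts, so depth per island is unknown and no interval was derived from it. All island starts are multiples of 200 bp, as the window implies, and the smallest gap between islands was 600 bp in the histone lists and 800 bp in the SETD5 lists. No input list was used.

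The reference was NCBIM37 (mm9) with its GENCODE annotation. Promoters reached 1000 bp upstream and 100 bp downstream of each protein-coding start, and gene ends 100 bp upstream and 1000 bp downstream. Lists were compared by an overlap of at least 1 bp. Where several islands overlapped a site, the length given is that of the island with the largest overlap. The value per library was the share of sites with an island, and shares were compared by exact two-sided permutation tests over the 8 H3K27ac libraries, with groups taken from the sample titles. The members, gene lists and named-site rules were chosen with earlier results of these data known. Named were the 10 sites highest in mean V5 score percentile, up to 3 per gene list within 50 kb of a start, the 3 highest lost, gained and vector-differing sites, the 5 highest with endogenous SETD5 at both times, and the 3 sites on each side of the length limit. The Setd5 and Nr3c1 sites, the runs and the lost or gained matrix and Klf9 sites beyond that rule were named after their values were seen. The Setd5 exons, copy number, short sites, satellite words and the direction of island length changes were also examined after the data had been seen. Of the listed genes, 3 (Ajuba, Cebpd and Spi1) had no entry under that symbol in the annotation. The count for 1 of the gene lists is not reported here. Alternatives were another overlap, reference list, distance, length, score, list length or promoter rule, each library left out, a replicate block, and low-copy or longer sites.

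Python 3.11.15, numpy 2.4.6, pandas 2.3.3, scipy 1.17.1, pysam 0.24.0, bedtools 2.31.1, samtools 1.23.1 and matplotlib 3.10.9 were used, and the scripts were tested on simulated data.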

Additional observations from a re-analysis of the deposited data

Results flagged for a closer look

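The change in the share of sites with H3K27ac from 0 h to 48 h differed between the 0 h sites and new sites by -10.1 points (exact two-sided permutation test over 4 against 4 libraries, p = 0.0286, the smallest possible). The share differed by -3.51, -3.04, -1.40 and -1.17 points at the 0 h sites and by 3.59, 6.25, 8.94 and 12.7 points at new sites, in empty-vector A and B and SETD5 A and B cells. New sites were defined by a 6 h V5 island and no 0 h island, so the sets differ by construction in when V5 islands appear.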

How the results depend on the processing

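The excess of H3K27ac at the 0 h sites over new sites kept its direction and its side of the threshold in 13 alternatives (16.97 to 34.3 points), and the change of that gap with time in 13 (-12.9 to -9.51 points). Leaving out 1 library gave 25.9 to 28.0 and -11.2 to -8.92 points. The 48 h minus 0 h difference at the 0 h sites ran from -3.14 to -1.38 points with 1 library left out and did not pass (exact permutation test, p = 0.143 to 0.429). It passed the exact permutation test with islands above the median score (-7.07, p = 0.0286) or lists of 31000 (-2.00, p = 0.0286). It did not pass in 12 other alternatives (-4.96 to -1.33 points, exact permutation p of 0.0571 to 0.4). The SETD5 minus empty-vector difference, 2.92 to 4.21 points with 1 library left out, missed the threshold with 50% of the site covered (1.92), the midpoint inside an island (2.06), islands above the median score (5.30), lists of 31000 islands (0.025), sites under 5000 bp (5.08) and sites of 1500 bp or more (3.32), with exact permutation p of 0.0571 to 0.971. With the letter as a replicate block, exact p values were 0.125 for the vector difference (3.60), 0.125 for the time difference at the 0 h sites (-2.28), 0.125 for the change of the gap (-10.1) and 0.5 for the excess over new sites (26.8), each the smallest that block allows. Correlations of same-letter deviations were 0.026 to 0.174, so the letters were not taken to pair libraries.

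The H3K4me1 excess over new sites (34.7 points at 0 h, 28.3 at 48 h) was 30.7 and 21.9 with 50% covered, 27.5 and 19.3 at the midpoint, 36.6 and 30.0 for sites 5000 bp or more from starts and ends, and at 48 h 26.5 from 1500 bp and 26.2 without endogenous SETD5. The endogenous SETD5 excess (21.0 at 0 h, 26.1 at 6 h) was 15.8 and 19.2 with 50% covered, 16.9 and 21.7 at the midpoint, 34.4 and 36.4 with 50% overlap among V5 lists, 22.7 and 23.2 for sites 5000 bp or more from starts and ends, 37.8 and 36.2 under 5000 bp, 15.9 and 22.2 from 1500 bp, 11.7 and 17.9 at low-copy sites, and 19.4 at 0 h with 6 h replicate B as reference. The number of sites was 1444 with 50% overlap, 1782 at 5000 bp from starts and ends and 1008 under 5000 bp. The AP-1 share of 18.4% was 10.2% in 500 bp windows, and 0.204 matches per kb over whole islands. Listed genes with a site numbered 43 within 20 kb and 75 within 100 kb. Settings by site length, copy number or endogenous SETD5 were chosen after seeing the data. List length and the calling threshold set what a share can show, and H3K4me1 and endogenous SETD5 have no replicate.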
